A study of Mus musculus with 12 samples.

Results

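The subject here is how PPT, a selective oestrogen receptor alpha agonist, changed liver transcripts in MOER mice compared with ERKO mice. For each probe set the response in each genotype was PPT minus oil on the scale log2(intensity + 16), and the difference was the MOER response minus the ERKO response. A positive difference means that PPT moved the transcript further up, or less far down, in MOER than in ERKO livers. Members were the liver-bright probe sets, those above the 60th percentile of their array in both wild type oil arrays. There were 11195 of them among 28815 on the array, and they held 8134 genes with 1 symbol each. Zkscan7 lay just inside this limit at 136.65 and 123.31 in the wild type oil arrays, and Asrgl1 just outside it at 128.34 and 123.30, against limits of 123.608 and 123.304.

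Liver RNA was measured on a whole-transcript Affymetrix mouse array in 12 samples, 2 for each of 6 groups. The 8 arrays behind the difference were MOER mice given PPT, MOER mice given oil, ERKO mice given PPT and ERKO mice given oil. Wild type mice given PPT and given oil (4 arrays) are set beside them. Per the labels, MOER mice have oestrogen receptor alpha at the membrane alone and ERKO mice lack it; the labels name no allele and no promoter. All groups were ovariectomised C57BL/6 mice of 3 months that recovered for 1 week and then received 100 µg of PPT or 0.1 mL of oil on each of 3 days. Each array carried whole-liver RNA pooled from 3 animals, and the experiment was done a second time. Whether the 2 arrays of each group were separate pools is not plain from the labels, so the p-values measure the spread between these arrays, which may be technical. In whole tissue, fewer cells of a type and less RNA per cell cannot be told apart.

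Oestrogen receptor alpha is best known as a nuclear receptor that binds DNA at oestrogen response elements when it holds a ligand. A part of the receptor pool sits at the plasma membrane and acts there through kinases, without binding DNA itself. In liver the receptor is known for restraining lipid synthesis and for its part in sex differences of metabolism. Per the labels, the authors looked for transcripts that PPT altered in wild type and MOER livers and not in ERKO livers, so ERKO livers served as the measure of what PPT did without the receptor.

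Esr1, the gene of oestrogen receptor alpha, read 117 and 131 in MOER-PPT, 126 and 128 in MOER-oil, 145 and 162 in ERKO-PPT, and 126 and 118 in ERKO-oil arrays, against 309 and 325 in wild type PPT and 347 and 365 in wild type oil arrays. All 8 MOER and ERKO arrays lay below all 4 wild type arrays, and the MOER and ERKO ranges overlapped, so this probe set did not separate the 2 genotypes. Its response difference was -0.33 ± 0.13 (log2, SE; limma adjusted p = 0.142).

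Replicate arrays correlated at 0.994 to 0.996 over the tested probe sets, and at 0.981 in ERKO oil, where array 2 read lower than array 1 by a median of 0.20 over the liver-bright probe sets (log2). Hepatocyte markers were bright in every array, with a summed intensity of 8 genes of 89387 to 92732 in MOER-PPT, 87637 to 90306 in MOER-oil, 77789.7 to 78536 in ERKO-PPT, and 71369.9 to 91645 in ERKO-oil arrays. RNA of other tissues was present in some groups. The 18 skeletal muscle markers summed to 20165 and 21392 in ERKO-PPT arrays, against 852.6 to 1085 in the other MOER and ERKO arrays. The 19 pancreatic acinar markers summed to 41999.9 and 52418 in MOER-oil arrays, against 723 to 1053 in the other MOER and ERKO arrays. The 20 squamous and airway markers summed to 10451 and 10701 in ERKO-PPT arrays, against 613 to 924 in the other MOER and ERKO arrays, and to 3843 and 4004 in wild type PPT against 560 to 621 in wild type oil arrays. In each of these groups both arrays carried the foreign RNA at nearly the same level. The liver-bright limit removed all 18 muscle, all 20 squamous and airway and all 14 neutrophil markers, and left 1 of 19 acinar markers, Cela1.

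**Figure D1:**
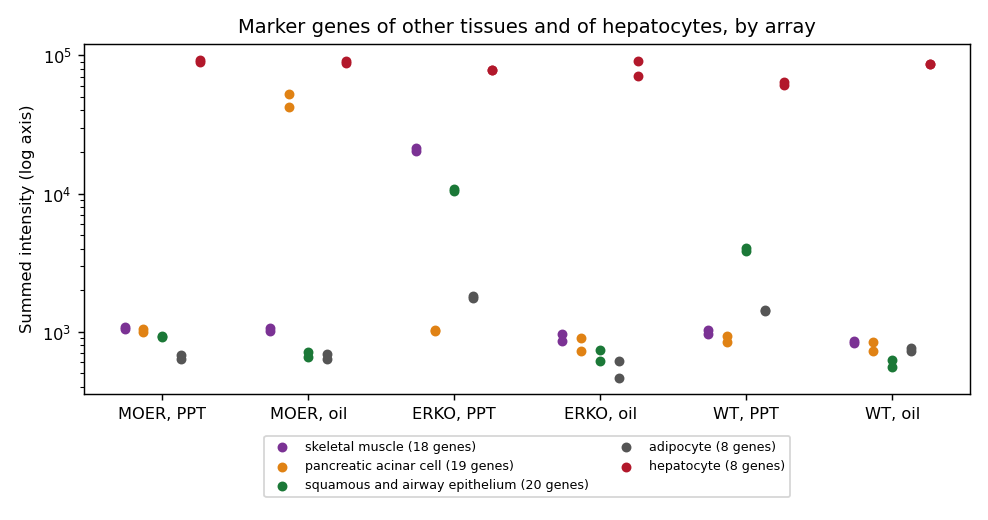
Summed intensity (log axis) of marker genes in each of the 12 arrays, by group; each point is 1 array and each colour 1 marker list. Muscle and squamous sums stand high in the ERKO-PPT arrays, the squamous sum also in the wild type PPT arrays, and the acinar sum in the MOER-oil arrays, while the hepatocyte sum lies between 60612 and 92732 in every array.

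The response to PPT differed between the genotypes for 1728 of 11195 liver-bright probe sets, which is 15.4% (limma, Benjamini-Hochberg adjusted p under 0.05 over 19119 tested probe sets). The difference was positive for 971 (8.67%) and negative for 757 (6.76%), and it reached 2-fold for 156 positive and 125 negative ones. Over all tested probe sets 11.5% were called. The median difference over the liver-bright probe sets was -0.03. All 1728 kept their sign for every one of the 16 ways of taking 1 array per group. These choices reuse the arrays behind the calls, so they are no separate test of them. The number and the balance moved with single arrays, in both directions. Without ERKO-oil array 1 there were 3499 calls, 1100 positive and 2399 negative, and without ERKO-oil array 2 there were 2665, 1902 positive and 763 negative. Leaving out any 1 of the other 6 arrays of the contrast gave 782 to 977 calls, with the positive share between 53.1% and 69.2%, against 56.2% with all arrays. The split was 1452 positive and 1524 negative with arrays centred on their liver-bright median, 1033 and 545 with arrays centred on the median of all probe sets, and 1246 and 1329 with a variance prior that follows the mean.

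More probe sets were called in the ERKO than in the MOER response with all 12 arrays in the fit. PPT changed 678 liver-bright probe sets in MOER livers (6.06%; 326 up and 352 down) and 2693 in ERKO livers (24.1%; 1289 up and 1404 down). The order turned when each genotype's 4 arrays were fitted alone, with 590 calls in MOER and 353 in ERKO livers, and at 2-fold change the counts were 107 and 148. The absolute change was larger in ERKO than in MOER livers for 73.2% of positive and 70.5% of negative called differences, and for 65.5% of the probe sets without a called difference. Of the 1728 called differences, 1109 had a called ERKO response and no called MOER response, 622 of them falling and 487 rising in ERKO livers. In 239 the MOER response was called and the ERKO response was not, 125 up and 114 down. In 152 both responses were called and ran in opposite directions, with 113 up in MOER and down in ERKO livers and 39 the other way. In 51 both responses were called in the same direction, and in 177 neither was called. Without ERKO-oil array 1 the pattern of an ERKO response alone held 2239 probe sets, that of a MOER response alone 426 and opposite responses 312; without ERKO-oil array 2 the numbers were 1653, 359 and 322. Across liver-bright probe sets, which are not independent replicates, the MOER and ERKO responses had a Pearson's r of 0.04 and a Spearman's rho of -0.07, and they share no arrays.

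**Figure D2:**
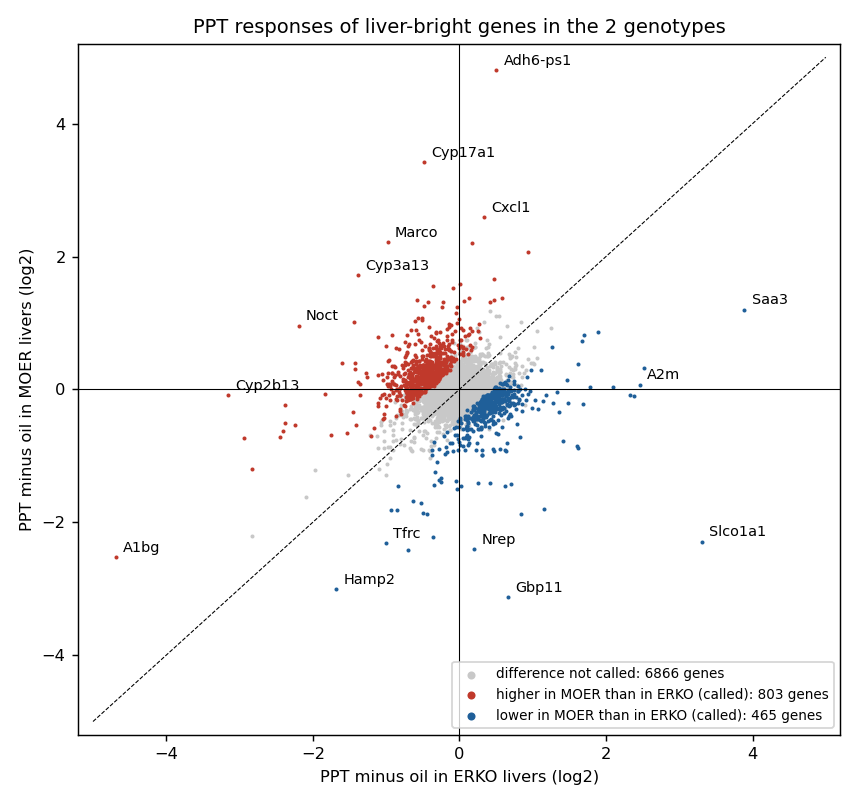
Each point is 1 of 8134 liver-bright genes, with its PPT response in ERKO livers on the x axis and in MOER livers on the y axis (both log2), and colour marks a called difference (803 higher and 465 lower in MOER). Points on the dashed line have equal responses; the coloured points spread more widely along the ERKO axis than along the MOER axis.

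The wild type arrays do not enter the group means of the difference. They do share its estimate of the spread, since all 12 arrays were fitted together, and the wild type oil arrays set the liver-bright limit. Calls in wild type livers and calls of the difference are therefore not independent. PPT changed 4613 liver-bright probe sets in wild type livers (41.2%), 1980 up (17.7%) and 2633 down (23.5%). Of the 971 positive differences, 162 (16.7%) rose and 514 (52.9%) fell in wild type livers. Among the 757 negative differences 233 (30.8%) rose and 172 (22.7%) fell in wild type livers. For comparison, 16.7% rose and 20.6% fell among the probe sets without a called difference. Of the 125 probe sets that rose in MOER and were not called in ERKO livers, 32 also rose in wild type livers, 63 fell there and 30 were not called. Of the 114 that fell in MOER and were not called in ERKO livers, 57 also fell in wild type livers, 37 rose and 20 were not called. Without ERKO-oil array 1, 50 of those raised in MOER livers rose and 108 fell in wild type livers, and 68 of those lowered rose and 99 fell. Without ERKO-oil array 2 these counts were 54 and 93 for those raised, and 61 and 64 for those lowered.

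Interferon-induced and acute phase genes are described below beside the DNA in front of their genes, and 4 promoter windows are shown first. Ifit1, Ifit3 and Bst2 are interferon-induced genes, and Steap4 is an acute phase gene that rose in MOER livers. The windows run from 250 bases before to 50 bases after the gene's start, 5′ to 3′ on the gene's strand, from RefSeq on build GRCm38.p6. They lie at chr19:34640639-34640938 (plus strand) for Ifit1, chr19:34583279-34583578 (plus) for Ifit3, chr8:71537423-71537722 (minus) for Bst2 and chr5:7960222-7960521 (plus) for Steap4. Capitals mark the interferon-stimulated response element searched as GAAANNGAA, on either strand, in the windows of Ifit1, Ifit3 and Bst2, and the STAT element searched as TTCNNNGAA in that of Steap4.
Ifit1: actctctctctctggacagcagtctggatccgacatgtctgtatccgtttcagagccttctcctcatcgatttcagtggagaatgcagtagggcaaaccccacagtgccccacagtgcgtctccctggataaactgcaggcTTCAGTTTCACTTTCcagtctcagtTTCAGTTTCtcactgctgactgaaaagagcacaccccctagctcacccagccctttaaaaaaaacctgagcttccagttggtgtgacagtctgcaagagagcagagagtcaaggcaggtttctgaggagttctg
Ifit3: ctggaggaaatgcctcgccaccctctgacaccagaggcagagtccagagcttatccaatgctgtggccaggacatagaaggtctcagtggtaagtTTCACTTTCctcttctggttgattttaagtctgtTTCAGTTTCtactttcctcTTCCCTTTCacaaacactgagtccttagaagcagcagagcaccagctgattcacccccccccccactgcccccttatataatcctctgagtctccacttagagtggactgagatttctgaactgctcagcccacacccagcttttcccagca
Bst2: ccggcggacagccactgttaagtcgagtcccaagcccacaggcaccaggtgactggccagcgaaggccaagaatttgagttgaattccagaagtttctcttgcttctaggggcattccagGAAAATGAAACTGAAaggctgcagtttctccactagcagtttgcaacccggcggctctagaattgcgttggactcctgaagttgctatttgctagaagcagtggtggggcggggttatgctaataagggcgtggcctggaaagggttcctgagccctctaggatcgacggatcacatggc
Steap4: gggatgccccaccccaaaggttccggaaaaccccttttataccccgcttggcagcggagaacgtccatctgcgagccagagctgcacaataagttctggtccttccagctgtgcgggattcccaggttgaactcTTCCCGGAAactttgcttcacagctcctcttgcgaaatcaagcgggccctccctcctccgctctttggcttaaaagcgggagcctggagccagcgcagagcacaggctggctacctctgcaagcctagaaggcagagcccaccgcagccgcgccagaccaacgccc
The response element was present in 8 of 17 interferon-list windows (47.1%), against 8.52% of the windows of liver-bright genes and 9.76% of 27025 windows of all genes. The STAT element was present in 6 of 23 acute phase windows (26.1%), against 8% and 9.55%. Among genes with a called positive difference the response element was in 11.1% and the STAT element in 10.2% of windows. Among those with a negative one the shares were 9.42% and 6.93%. The windows printed all hold their element, and B2m, whose difference was not called, holds the response element too. The sterol element searched as TCACNCCAC was in 1 of 16 cholesterol synthesis windows (6.25%, against 1.53% and 1.44%), and the E-box searched as CACGTG was in 1 of 9 clock windows (11.1%, against 11.9% and 8.09%). The D-box searched as TTATGNAA was in 0 of those 9 clock windows, and the ATF4 element searched as TGATGNAAT in 0 of 17 windows of endoplasmic reticulum chaperone genes. The oestrogen response element, searched as its consensus palindrome on both strands, was in 0.074% of all windows and in 1 of 6586 windows of liver-bright genes (0.0152%). It was in 0 of the windows of genes with a called difference, positive (648) or negative (361). At so low a share, a count of 0 in sets of this size cannot tell them from other genes. The interferon and STAT elements can overlap each other, and a match in these letters is a description of the window, not a site of binding.

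Among the 10 highest differences, Cyp17a1, which encodes the steroid 17-alpha-hydroxylase of androgen synthesis (probe set 10468239), read 2449.9 and 2552 in MOER-PPT, 222 and 216 in MOER-oil, 704 and 678 in ERKO-PPT, and 1045 and 902 in ERKO-oil arrays. Both MOER-PPT arrays lay above all other MOER and ERKO arrays, and ERKO livers moved slightly the other way. PPT raised it 11.4-fold in MOER livers and lowered it 1.41-fold in ERKO livers, a difference of 3.90 ± 0.13 (log2, SE; adjusted p = 2.84e-08). Wild type livers read 10535 and 9707 after PPT and 1588 and 1593 after oil, a rise of 6.36-fold.

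Marco, a scavenger receptor of macrophages, read 335 and 357 in MOER-PPT, 73 and 51.9 in MOER-oil, 49 and 46.3 in ERKO-PPT, and 134 and 88.3 in ERKO-oil arrays. The MOER-PPT arrays were the highest, the groups did not overlap within either genotype, and both ERKO-PPT arrays were dim, under the 40th percentile of their array. The fitted difference, 3.19 ± 0.23 (adjusted p = 9.55e-06), therefore depends on the constant added before the log, and it ran from 2.34 to 3.65 over the alternatives. PPT raised Marco 5.54-fold in MOER livers and lowered it at least 1.84-fold in ERKO livers, and wild type livers rose too, to 969 and 987 after PPT against 134 and 136 after oil. Cxcl1, a chemokine that draws neutrophils, read 1901 and 1864 in MOER-PPT, 275 and 325 in MOER-oil, 327 and 318 in ERKO-PPT, and 269.9 and 233 in ERKO-oil arrays. It was raised 6.28-fold in MOER livers and by 0.34 on the log2 scale in ERKO livers, where the change was not called (adjusted p = 0.0574). Adh6-ps1, by its name an alcohol dehydrogenase pseudogene, read 534 and 655 in MOER-PPT, 5.78 and 5.69 in MOER-oil, 558 and 534 in ERKO-PPT, and 412 and 351 in ERKO-oil arrays, so the MOER-oil arrays alone were dim. PPT raised it at least 9.85-fold in MOER livers, against 1.43-fold in ERKO livers. Its fitted difference, 4.30, was the highest called among liver-bright genes. The size depends on the constant added before the log, and ran from 2.78 to 5.94 over the alternatives.

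Noct, a clock-driven phosphatase, and Dbp, a transcription factor of the clock's output, rose in MOER and fell in ERKO livers. Noct read 591 and 513 in MOER-PPT, 279 and 271 in MOER-oil, 96.8 and 97.4 in ERKO-PPT, and 539 and 465 in ERKO-oil arrays, with a difference of 3.15 ± 0.15 (adjusted p = 2.85e-07). Cyp3a13, a drug-metabolising cytochrome P450, read 3427 and 3729 in MOER-PPT, 1135 and 1017 in MOER-oil, 1374 and 1389 in ERKO-PPT, and 3763 and 3473 in ERKO-oil arrays. The ERKO-oil and MOER-PPT arrays were both high, and PPT moved the genotypes apart by 3.10 ± 0.13 (adjusted p = 1.17e-07). Wild type livers followed ERKO livers for Cyp3a13, at 1187 and 1200.0 after PPT and 2979 and 2932 after oil. Cyp2b13, Cyp3a16 and A1bg, the other 3 of the 10, fell further in ERKO than in MOER livers and are given with the female-biased genes.

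**Figure D3:**
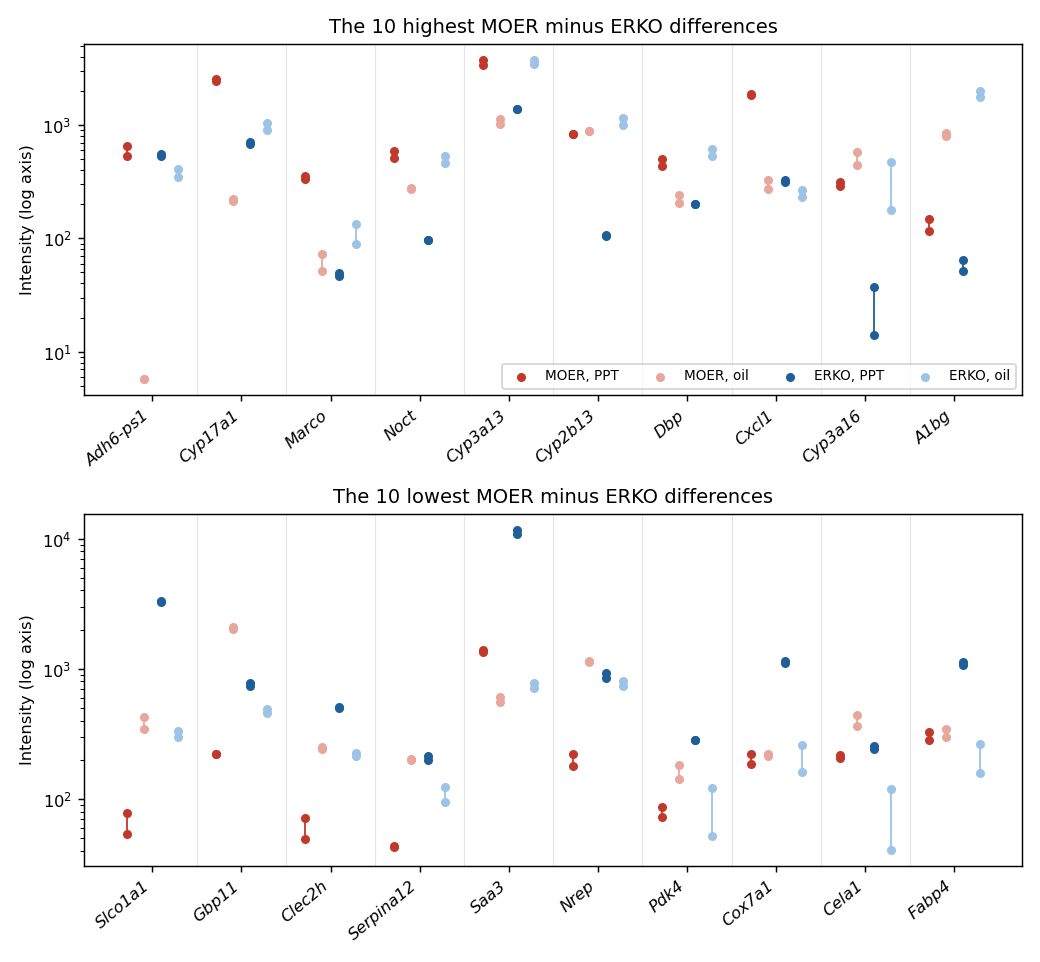
Intensity (log axis) in each of the 8 MOER and ERKO arrays for the 10 genes with the highest (top) and the 10 with the lowest (bottom) difference; each point is 1 array and a line joins the 2 arrays of a group. Cyp17a1 stands out in the MOER-PPT arrays, Adh6-ps1 is dim in the MOER-oil arrays, and Slco1a1 and Saa3 are brightest in the ERKO-PPT arrays.

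The lowest difference belonged to Slco1a1, the organic anion transporter Oatp1a1 of the hepatocyte membrane, which is higher in male than in female mouse liver (probe set 10548978). It read 53.5 and 78.2 in MOER-PPT, 423 and 343 in MOER-oil, 3247 and 3301 in ERKO-PPT, and 335 and 298 in ERKO-oil arrays. The 4 groups did not overlap, and the MOER-oil and ERKO-oil arrays were near each other. PPT lowered it 5.82-fold in MOER livers and raised it 10.4-fold in ERKO livers, a difference of -5.60 ± 0.21 (adjusted p = 4.79e-08). In wild type livers it read 456 and 434 after PPT and 302 and 269 after oil.

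Gbp11, of the guanylate-binding protein family, read 222 and 220.5 in MOER-PPT, 2109 and 2026 in MOER-oil, 738 and 781 in ERKO-PPT, and 459 and 491 in ERKO-oil arrays. The MOER-oil arrays were the highest and the MOER-PPT arrays the lowest, and the difference was -3.79 ± 0.13 (adjusted p = 2.84e-08). Gbp11 fell in wild type livers too, at 87.1 and 73.9 after PPT and 598 and 594 after oil. Clec2h, a C-type lectin-like gene, read 48.9 and 71 in MOER-PPT, 250.4 and 241 in MOER-oil, 501 and 511 in ERKO-PPT, and 224 and 213 in ERKO-oil arrays, and its wild type level was 35.9 and 20.4 after PPT, dim in both arrays, and 255 and 240.0 after oil. Serpina12, the adipokine vaspin, read 43.2 and 43.2 in MOER-PPT, 199 and 202 in MOER-oil, 213 and 199.9 in ERKO-PPT, and 124 and 94.1 in ERKO-oil arrays. It fell at least 3.32-fold in MOER livers and rose in wild type livers, at 807 and 767 after PPT and 137 and 141 after oil. Nrep fell in MOER livers, at 179 and 224 after PPT and 1124 and 1141 after oil, and its ERKO change of 0.20 (log2) was not called (adjusted p = 0.251).

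Of the 10 lowest, 4 more rose in ERKO-PPT livers, the group with muscle, squamous and adipocyte markers. Cox7a1, the muscle form of a cytochrome oxidase subunit, read 1151 and 1107 in ERKO-PPT and 259.5 and 160.1 in ERKO-oil arrays. Fabp4, the fatty acid carrier of adipocytes, read 1123 and 1066 in ERKO-PPT and 263 and 158 in ERKO-oil arrays, and 951 and 949.9 in wild type PPT and 408 and 411 in wild type oil arrays. The 8 adipocyte markers summed to 1759 and 1801 in ERKO-PPT and 459 and 616 in ERKO-oil arrays. Cela1, an elastase of the acinar list, and Pdk4, the kinase that holds back pyruvate dehydrogenase, had ERKO-oil arrays far apart, at 119.5 and 40.8 and at 122 and 52.1. The part of other tissues in these 4 differences was not tested.

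Gene lists were read as counts of liver-bright genes, against 9.87% positive and 5.72% negative differences over all 8134 liver-bright genes, and a median difference of 0.02. Where a group was dim for a gene, the fitted size depends on the 16 added before the log. In single responses the shares over all liver-bright genes were 3.29% up and 3.29% down in MOER, 8.03% up and 14.5% down in ERKO, and 18.3% up and 26.5% down in wild type livers.

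**Figure D4:**
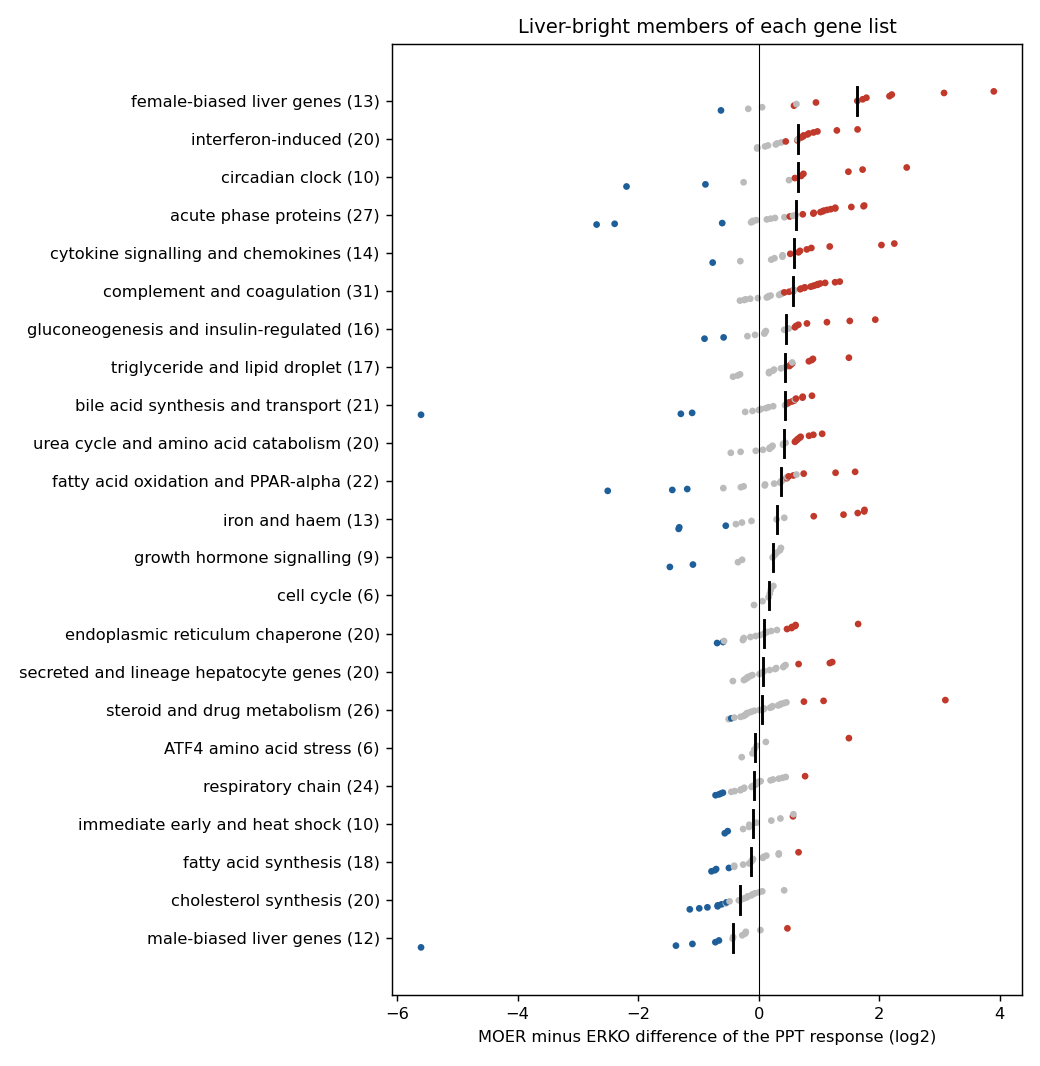
Response difference (log2) of each liver-bright member of 23 gene lists, with list sizes in parentheses; each point is 1 gene, red or blue where the difference was called positive or negative, and the black bar is the list's median. Female-biased, interferon, clock and acute phase lists lie highest and the male-biased and cholesterol lists lowest.

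Of 20 cholesterol synthesis genes 7 had a negative and 0 a positive difference, with a median of -0.31. In MOER livers 14 of 20 fell and 0 rose (median -0.59), in ERKO livers 7 fell and 0 rose (median -0.21), and in wild type livers 19 fell (median -1.16). Mvd, the mevalonate diphosphate decarboxylase, read 125 and 113 in MOER-PPT, 335 and 339.9 in MOER-oil, 243 and 237 in ERKO-PPT, and 324 and 256 in ERKO-oil arrays. The MOER-PPT arrays were the lowest, and the difference was -1.14 ± 0.15 (adjusted p = 0.00104). Idi1, which isomerises isopentenyl diphosphate, read 2908 and 3276 in MOER-PPT, 6031 and 5593 in MOER-oil, 5734 and 5920.3 in ERKO-PPT, and 5753 and 5290.3 in ERKO-oil arrays, with a difference of -0.99 ± 0.14 (adjusted p = 0.00152). Fdps, the farnesyl diphosphate synthase, had a difference of -0.85, and Cyp51, the lanosterol demethylase, of -0.68, both with a called fall in MOER and no called change in ERKO livers. The call of Cyp51 was lost in 4 of 21 alternatives. Fdft1 and Sqle fell in both genotypes, by -0.80 and -0.68 in MOER and -0.61 and -0.49 in ERKO livers (log2). Their differences of -0.18 and -0.19 were not called. The list held 11 negative and 0 positive differences without ERKO-oil array 1, and 7 and 1 without array 2.

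Most fatty acid synthesis genes fell in both genotypes. Of 18 members 12 fell and 0 rose in MOER livers (median -0.54), and 12 fell and 1 rose in ERKO livers (median -0.42), while 4 differences were negative, a larger share than over all liver-bright genes, and 1 was positive (median -0.13). Without ERKO-oil array 1 there were 6 negative and 1 positive, and without array 2 there were 4 and 3 (medians -0.24 and -0.04). Fasn, the fatty acid synthase, read 235 and 222 in MOER-PPT, 535 and 502 in MOER-oil, 303 and 286 in ERKO-PPT, and 651 and 558 in ERKO-oil arrays. Its fall was alike in size, at -1.13 in MOER and -0.99 in ERKO livers, and the 95% interval of the difference ran from -0.44 to 0.18 (log2). Srebf1, the transcription factor that drives this pathway, read 269 and 231 in MOER-PPT, 534 and 522 in MOER-oil, 245 and 212 in ERKO-PPT, and 503 and 406 in ERKO-oil arrays, with an interval from -0.47 to 0.28. Thrsp, a lipogenic regulator, had a difference of -0.78 ± 0.14 (adjusted p = 0.00515), and Acacb, the mitochondrial acetyl-CoA carboxylase, of -0.73, a call lost in 5 of 21 alternatives. Pklr, the liver pyruvate kinase, had the 1 positive difference, 0.66, and fell in both genotypes.

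Of 17 triglyceride and lipid droplet genes 7 had a positive and 0 a negative difference, with a median of 0.44. In MOER livers 2 rose and 1 fell, and in ERKO livers 0 rose and 9 fell. Wild type livers had 7 falling and 4 rising (median -0.14). The list held 7 positive and 2 negative differences (median 0.28) without ERKO-oil array 1, and 10 and 0 (median 0.57) without array 2. Lpin2, a phosphatidate phosphatase, read 1022 and 1059 in MOER-PPT, 809.8 and 824 in MOER-oil, 874 and 850.0 in ERKO-PPT, and 1337 and 1218 in ERKO-oil arrays, and Plin2, the coat protein of lipid droplets, read 2935 and 3022 in MOER-PPT, 2305 and 2311 in MOER-oil, 2394 and 2348 in ERKO-PPT, and 3369 and 3198 in ERKO-oil arrays. Both rose in MOER and fell in ERKO livers, with differences of 0.90 ± 0.12 and 0.83 ± 0.11 (adjusted p = 0.00096 and 0.00104). Mttp and Apob, which load and form very low density lipoprotein, had differences of 0.55 and 0.51, with calls lost in 2 and 10 of 21 alternatives.

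Fatty acid oxidation genes were mixed, with 6 positive and 3 negative differences of 22 (median 0.37). In ERKO livers 16 fell and 1 rose, and in MOER livers 7 fell and 2 rose. Wild type livers had 14 falling and 1 rising (median -0.57). Cpt1a, which admits long-chain fatty acids to mitochondria, read 1120.0 and 1082 in MOER-PPT, 739 and 744 in MOER-oil, 583 and 559 in ERKO-PPT, and 984 and 913 in ERKO-oil arrays, rising in MOER and falling in ERKO livers. Angptl4, an inhibitor of lipoprotein lipase, rose in MOER livers, with 499 and 488 after PPT and 166 and 158 after oil, and was not called in ERKO livers. Cyp4a10, a fatty acid omega-hydroxylase, fell further in MOER livers, a difference of -1.43 ± 0.12 (adjusted p = 3.02e-05). This list held 7 positive and 5 negative differences without ERKO-oil array 1, and 12 and 4 without array 2.

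Gluconeogenic and insulin-regulated genes had 7 positive and 2 negative differences of 16 (median 0.46). Pck1, the rate-limiting phosphoenolpyruvate carboxykinase, read 5211 and 5729 in MOER-PPT, 2089 and 2176 in MOER-oil, 1841 and 1838 in ERKO-PPT, and 3037 and 2513 in ERKO-oil arrays. The MOER-PPT arrays stood above all others, and the difference was 1.93 ± 0.15 (adjusted p = 1.24e-05). Pcx, the pyruvate carboxylase, rose in MOER and fell in ERKO livers, a difference of 1.13, and Slc2a2, the glucose transporter GLUT2, fell in ERKO livers and had a difference of 1.51. Ppp1r3b, a glycogen-targeting phosphatase subunit, fell further in MOER livers, a difference of -0.90. Igfbp1, an insulin-repressed binding protein of insulin-like growth factors, rose in both, by 0.87 in MOER and 1.06 in ERKO livers, and the interval of the difference ran from -0.60 to 0.23.

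Bile acid genes had 8 positive and 3 negative differences of 21 (median 0.44), with 5 falling and 0 rising in MOER livers and 14 falling and 2 rising in ERKO livers. Wild type livers had 14 falling and 6 rising (median -0.81). The list held 9 and 3 (median 0.26) without ERKO-oil array 1, and 11 and 3 (median 0.50) without array 2. The canalicular and basolateral carriers Abcg8, Abcb4, Abcb11, Abcc2 and Slc10a1 fell in ERKO livers and were not called in MOER livers, with differences of 0.48 to 0.88, and the calls of Abcc2 and Slc10a1 were each lost in 6 of 21 alternatives. Cyp8b1, the 12-alpha-hydroxylase that makes cholic acid, fell in MOER livers without a called ERKO change and had a difference of -1.29 ± 0.15 (adjusted p = 0.000277). Nr0b2, the repressor SHP, fell in MOER livers without a called ERKO change, a difference of -1.11. Cyp7a1, which sets the rate of bile acid synthesis, read 1336 and 1439 in MOER-PPT, 3287 and 3123 in MOER-oil, 1905 and 1865 in ERKO-PPT, and 4177 and 3922 in ERKO-oil arrays. It fell in both by a like amount, with an interval of the difference from -0.37 to 0.17, and was at 20.8 and 22.6 after PPT, dim, and 2623 and 2554 after oil in wild type livers.

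Urea cycle and amino acid genes had 9 positive and 0 negative differences of 20 (median 0.43), with no called MOER response (0 of 20) and 11 falling in ERKO livers. Wild type livers had 13 falling and 2 rising (median -0.97). Asl, the argininosuccinate lyase, read 3181 and 3236 in MOER-PPT, 2843 and 3027 in MOER-oil, 1541 and 1453 in ERKO-PPT, and 3033 and 2685 in ERKO-oil arrays. The ERKO-PPT arrays were the lowest, with a difference of 1.05 ± 0.13 (adjusted p = 0.000522). Cbs, of the transsulfuration pathway, and Mat1a, which makes S-adenosylmethionine, had differences of 0.91 and 0.70, and the call of Mat1a was lost in 4 of 21 alternatives. The list held 10 positive and 2 negative differences without ERKO-oil array 1, and 12 and 0 without array 2. Complement and coagulation genes, which hepatocytes secrete, had 17 positive and 0 negative of 31 (median 0.57). In ERKO livers 19 fell and 3 rose, and in MOER livers 9 rose and 1 fell. Wild type livers had 22 falling and 3 rising (median -0.58). C4b, a complement component, read 1971 and 1948 in MOER-PPT, 1284 and 1207 in MOER-oil, 926 and 912 in ERKO-PPT, and 1617 and 1389 in ERKO-oil arrays. PPT raised it in MOER and lowered it in ERKO livers, a difference of 1.34 ± 0.14 (adjusted p = 0.000132), and F5, Hc, Serpinf2 and Cfb behaved alike, with differences of 0.86 to 1.10. The ERKO-PPT arrays in which these genes fell also held the muscle and squamous RNA, and their hepatocyte sum was 77789.7 to 78536 against 71369.9 to 91645 in ERKO-oil arrays; the part of this in the falls was not tested. Among secreted and lineage hepatocyte genes, 3 of 20 differed positively and 0 negatively (median 0.08). The list held 4 positive and 6 negative (median -0.06) without ERKO-oil array 1, and 7 and 0 (median 0.23) without array 2, so its sign rested on 1 array. The secreted protein albumin (Alb) had a difference of -0.22, not called.

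Acute phase genes rose in MOER livers. Of 27 members 19 rose and 0 fell in MOER livers (median 0.82), 7 rose and 3 fell in ERKO livers (median 0.10), and 14 differences were positive and 3 negative (median 0.62). Steap4, a metalloreductase whose window is printed above, read 3224 and 3466 in MOER-PPT, 1309 and 1354 in MOER-oil, 1496 and 1529 in ERKO-PPT, and 2072 and 2019.9 in ERKO-oil arrays. The MOER-PPT arrays exceeded all others by a wide margin, with a difference of 1.75 ± 0.12 (adjusted p = 4.5e-06). Lbp, the lipopolysaccharide-binding protein, read 1858 and 1920.0 in MOER-PPT, 1076 and 1052 in MOER-oil, 689 and 668 in ERKO-PPT, and 1135 and 1117 in ERKO-oil arrays, rising in MOER and falling in ERKO livers by a difference of 1.54 ± 0.11 (adjusted p = 1.16e-05). Lcn2, the iron-siderophore carrier lipocalin 2, read 9934 and 9781 in MOER-PPT, 2364 and 2289 in MOER-oil, 9865 and 10363 in ERKO-PPT, and 5499 and 5025 in ERKO-oil arrays. It rose in both genotypes and further in MOER livers, a difference of 1.13, although the PPT arrays of the genotypes overlapped. Serpina3n and Lrg1 rose in MOER livers by 1.67 and 1.33 (log2).

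Saa3 and A2m went the other way. Both were highest in the ERKO-PPT arrays, which also held muscle, squamous and adipocyte markers, and the part of other tissues was not tested. Saa3, the serum amyloid A form made outside as well as inside the liver, read 1342 and 1385 in MOER-PPT, 611 and 559.6 in MOER-oil, 10862 and 11592 in ERKO-PPT, and 773 and 712 in ERKO-oil arrays, so it rose 2.33-fold in MOER and 15.1-fold in ERKO livers, a difference of -2.69 ± 0.13 (adjusted p = 3.55e-07). A2m, alpha-2-macroglobulin, read 379 and 381 in MOER-PPT, 370.3 and 351 in MOER-oil, 1681 and 1577 in ERKO-PPT, and 241 and 329 in ERKO-oil arrays, and rose in ERKO livers without a called MOER change. The fibrinogen chains Fgb and Fgg had no called difference (log2 -0.10 and -0.04), while Fga had 0.91.

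Interferon-induced genes had 11 positive and 0 negative differences of 20 (median 0.66). In MOER livers 9 rose and 0 fell, in ERKO livers 0 rose and 2 fell, and in wild type livers 2 rose and 12 fell. Irf7, the transcription factor that amplifies the interferon response, read 523 and 497 in MOER-PPT, 248 and 218 in MOER-oil, 234 and 206 in ERKO-PPT, and 384 and 287 in ERKO-oil arrays. Its MOER-PPT arrays were the highest, and ERKO-PPT arrays were below ERKO-oil arrays, with a difference of 1.64 ± 0.18 (adjusted p = 0.000285). Usp18, which removes the ubiquitin-like ISG15, read 261 and 264 in MOER-PPT, 155 and 144 in MOER-oil, 149.8 and 143 in ERKO-PPT, and 273 and 178 in ERKO-oil arrays, a difference of 1.30 ± 0.21 (adjusted p = 0.00344). Ifit1 and Ifit3, which bind foreign RNA or the proteins that do, had differences of 0.81 and 0.91. Ifit1 read 591 and 659 in MOER-PPT, 412 and 374 in MOER-oil, 523 and 526 in ERKO-PPT, and 607 and 570.4 in ERKO-oil arrays, against 180.1 and 178 in wild type PPT and 568 and 529 in wild type oil arrays, so wild type livers moved down where MOER livers moved up. Bst2, the tether of enveloped viruses, rose in MOER and in wild type livers, by 0.60 and 0.47 (log2), and its difference of 0.74 lost its call in 5 of 21 alternatives. The proteasome and antigen-presentation genes Psmb8, Psmb9 and B2m had no called difference (0.15, -0.03 and -0.02).

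Cytokine and chemokine genes had 8 positive and 1 negative difference of 14 (median 0.59). Cxcl13, a chemokine that attracts B cells, read 862 and 1022 in MOER-PPT, 187 and 194 in MOER-oil, 324 and 346 in ERKO-PPT, and 332 and 262 in ERKO-oil arrays, and rose in MOER livers without a called ERKO change, a difference of 2.04 ± 0.18 (adjusted p = 3.98e-05). Stat3, which carries interleukin 6 signals to acute phase genes, read 638 and 686 in MOER-PPT, 368 and 346 in MOER-oil, 299 and 266 in ERKO-PPT, and 366 and 344 in ERKO-oil arrays, rising in MOER and falling in ERKO livers. Cxcl9, an interferon-gamma-induced chemokine, was the 1 member with a negative difference, -0.76, a call lost in 2 of 21 alternatives. Macrophage and Kupffer cell markers moved with these lists, with 8 positive and 2 negative differences of 16 (median 0.54). Their summed intensity was 19893 and 20002 in MOER-PPT, 16098 and 16324 in MOER-oil, 13089 and 13382 in ERKO-PPT, and 14389 and 16369 in ERKO-oil arrays. Mpeg1, Adgre1 and Marco, all of this list, rose in MOER and fell in ERKO livers, with differences of 1.08, 0.89 and 3.19. The 2 negative differences were those of Cd163 and Timd4, at -1.33 and -0.86, and that of Timd4 lost its call in 13 of 21 alternatives. The 14 neutrophil markers summed to 1543 and 1570.3 in MOER-PPT, 1301 and 1481 in MOER-oil, 1741 and 1828 in ERKO-PPT, and 2159 and 3019 in ERKO-oil arrays. The part of these cells in the immune gene differences was not tested.

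Of 10 clock genes 6 had a positive and 2 a negative difference (median 0.65). In MOER livers 3 rose and 1 fell, and in ERKO livers 2 rose and 5 fell. Arntl, the activator BMAL1, read 115 and 121 in MOER-PPT, 221 and 207 in MOER-oil, 217 and 205 in ERKO-PPT, and 69.5 and 68.8 in ERKO-oil arrays. It fell in MOER and rose in ERKO livers, a difference of -2.19 ± 0.12 (adjusted p = 8.68e-07). Dbp, which BMAL1 and CLOCK activate, read 499.6 and 436 in MOER-PPT, 205 and 240.2 in MOER-oil, 202 and 202 in ERKO-PPT, and 619.5 and 532 in ERKO-oil arrays, with the opposite signs and a difference of 2.46 ± 0.16 (adjusted p = 3.78e-06). Tef, of the same family as Dbp, rose in MOER and fell in ERKO livers (difference 1.49), and Bhlhe40, a clock repressor, read 368 and 387 in MOER-PPT, 309.6 and 295 in MOER-oil, 182 and 159 in ERKO-PPT, and 548 and 423 in ERKO-oil arrays, falling in ERKO livers without a called MOER change. Clock had a negative difference of -0.88, like Arntl. In wild type livers Dbp, Tef and Bhlhe40 fell, by -1.04, -0.94 and -2.72, as in ERKO livers, and Arntl fell by 0.46, as in MOER livers. The time of day at which livers were taken is not stated in the labels, so its part in these values cannot be told apart from that of the groups.

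**Figure D5:**
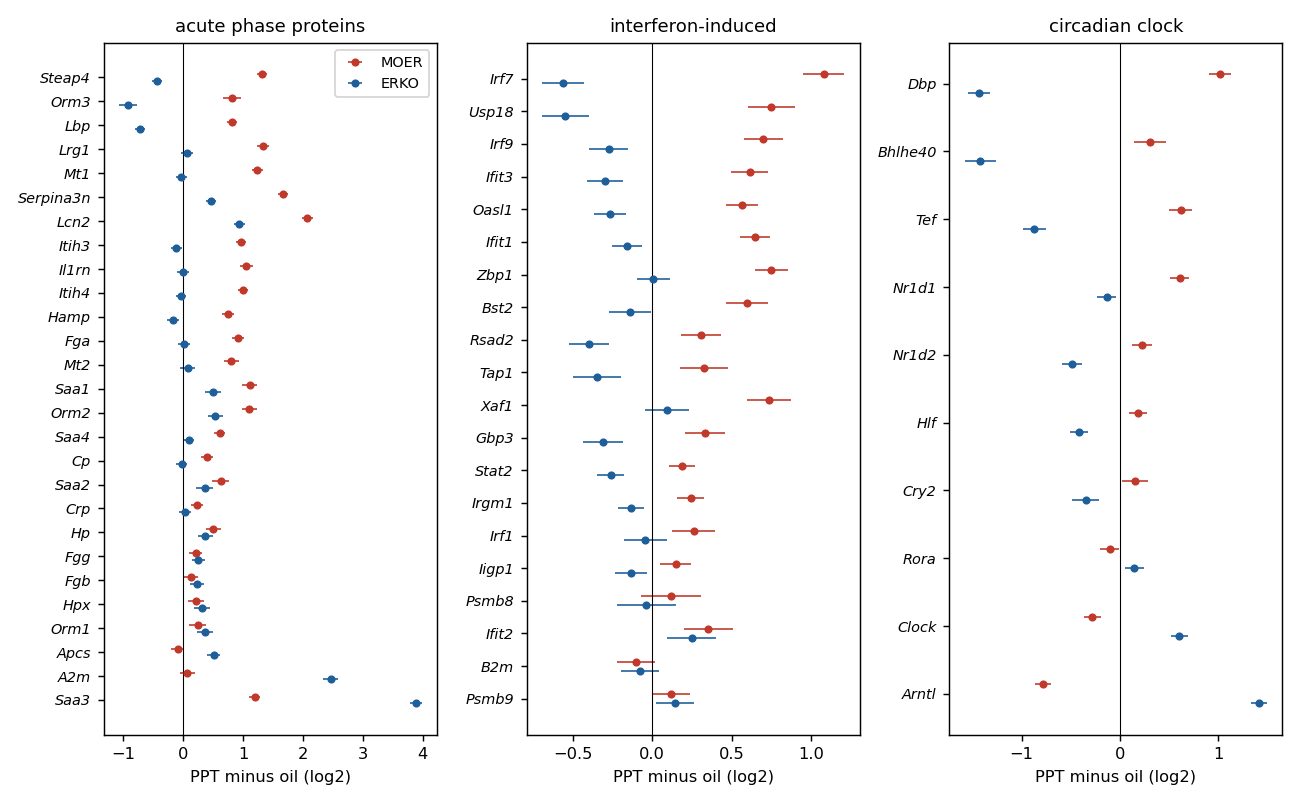
PPT minus oil (log2, point with SE of the fit) in MOER (red) and ERKO (blue) livers for each liver-bright member of the acute phase, interferon-induced and circadian clock lists, ordered by the difference. Most acute phase and interferon members lie to the right in MOER livers, Saa3 and A2m lie far right in ERKO livers, and Dbp and Arntl have opposite signs in the genotypes.

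Sex-biased liver genes carried some of the widest differences. Of 13 female-biased members 9 differences were positive and 1 negative (median 1.64). In ERKO livers 12 fell and 0 rose (median -2.41), and in MOER livers 8 fell and 1 rose (median -0.63). Wild type livers had 8 falling and 3 rising (median -1.23). Cyp2b13, a cytochrome P450, read 829.8 and 838 in MOER-PPT, 889 and 879.6 in MOER-oil, 106 and 106 in ERKO-PPT, and 1159.8 and 995 in ERKO-oil arrays. The ERKO-PPT arrays stood far below the other 6 arrays, with a difference of 3.08 ± 0.13 (adjusted p = 1.28e-07). Cyp2b9, its close relative, read 4507 and 4582 in MOER-PPT, 7218 and 6827 in MOER-oil, 1167 and 1169.6 in ERKO-PPT, and 6101 and 6484 in ERKO-oil arrays, and cross-hybridisation between the 2 genes was not tested. A1bg, a plasma glycoprotein, read 115 and 148 in MOER-PPT, 852 and 802 in MOER-oil, 63.8 and 51.2 in ERKO-PPT, and 1986 and 1777 in ERKO-oil arrays, so it fell in both genotypes and further in ERKO livers (2.17 ± 0.18, adjusted p = 2.27e-05), and rose in wild type livers by 1.38. Cyp3a16 read 289.9 and 312 in MOER-PPT, 581 and 446 in MOER-oil, 37.2 and 14.2 in ERKO-PPT, and 473 and 176 in ERKO-oil arrays, and its ERKO-oil arrays differed more than 2-fold from each other. Its difference, 2.21, was called (adjusted p = 0.0221), a call lost in 5 of 21 alternatives, and its ERKO-PPT arrays were dim. The sulfotransferase Sult3a1 and the oxidase Hao2 fell in both genotypes, with differences of 1.73 and 1.64.

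Of 12 male-biased members 5 differences were negative and 1 positive (median -0.43), with 1 rising and 3 falling in MOER livers and 7 rising and 1 falling in ERKO livers. Beside Slco1a1, Nudt7, a coenzyme A hydrolase of peroxisomes, read 3564 and 3777 in MOER-PPT, 4928 and 4984 in MOER-oil, 6669.6 and 6923 in ERKO-PPT, and 4436 and 4109 in ERKO-oil arrays, a difference of -1.10 ± 0.12 (adjusted p = 0.000245). The major urinary proteins Mup3 and Mup21 rose in ERKO livers without a called MOER change, with differences of -0.66 and -1.37 whose calls were lost in 5 and 6 of 21 alternatives, and probes may not tell the near-identical members of this family apart. Growth hormone signalling, which sets these sex-biased genes in mice, had 2 negative and 0 positive differences of 9, although the list's median was 0.23 (0.04 without ERKO-oil array 1 and 0.12 without array 2). Socs2, a feedback inhibitor of the pathway, read 85.7 and 107 in MOER-PPT, 315 and 288 in MOER-oil, 259 and 265 in ERKO-PPT, and 288 and 249 in ERKO-oil arrays, and fell in MOER livers without a called ERKO change (difference -1.48 ± 0.17, adjusted p = 0.000363). The growth hormone receptor Ghr was not called, at -0.34.

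Iron and haem genes had 5 positive and 3 negative differences of 13 (median 0.30). Tfrc, the transferrin receptor, read 313 and 364 in MOER-PPT, 1756 and 1743 in MOER-oil, 612 and 613 in ERKO-PPT, and 1289 and 1197 in ERKO-oil arrays. It fell in both genotypes and further in MOER livers, a difference of -1.32 ± 0.13 (adjusted p = 0.000124), while it rose in wild type livers by 1.29. Hamp2, a hepcidin, read 1116 and 1366 in MOER-PPT, 10809.7 and 9364 in MOER-oil, 1253 and 1301 in ERKO-PPT, and 4641 and 3674 in ERKO-oil arrays, also falling further in MOER livers (-1.33). Hamp, the hepcidin that controls iron export, rose in MOER livers and had a difference of 0.91. Alas1, the first enzyme of haem synthesis in liver, read 1072 and 1154 in MOER-PPT, 1179 and 1164 in MOER-oil, 667 and 685 in ERKO-PPT, and 2498 and 2388 in ERKO-oil arrays, with the ERKO-oil arrays the highest, and a difference of 1.75 ± 0.12 (adjusted p = 7.6e-06).

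Of 20 endoplasmic reticulum chaperone genes 4 rose and 1 fell in MOER livers (median 0.15), 4 rose and 5 fell in ERKO livers (median -0.02), and 18 rose and 0 fell in wild type livers (median 1.00). The differences from wild type were not tested. The difference was positive for 6 and negative for 2 (median 0.09), and without ERKO-oil array 1 for 7 and 4. The MOER-oil arrays also held pancreatic acinar RNA, and its part in the values of this list was not tested. Herpud1, of the degradation machinery, read 1635 and 1527 in MOER-PPT, 971 and 1029 in MOER-oil, 856 and 843 in ERKO-PPT, and 1898 and 1543 in ERKO-oil arrays, with a difference of 1.65 ± 0.15 (adjusted p = 5.74e-05). Hspa5, the chaperone BiP, had a difference of 0.14, not called, and rose in wild type livers by 1.29. The 6 cell cycle members had a median difference of 0.17. Ccnd1 (cyclin D1) had 0.18 (adjusted p = 0.405) and read 247 and 271 in MOER-PPT and 267 and 284 in MOER-oil arrays, against 683 and 644 in wild type PPT and 328 and 315 in wild type oil arrays. Of 26 steroid and drug metabolism genes 3 differed positively and 1 negatively (median 0.05), of 24 respiratory chain genes 1 and 4 (median -0.08), of 10 immediate early and heat shock genes 1 and 2 (median -0.10), and of 6 ATF4 targets 1 and 0 (median -0.05). These shares lay near or below those over all liver-bright genes, apart from the negative ones of the respiratory chain and heat shock lists and the positive ones of the steroid and ATF4 lists. They moved with the ERKO-oil arrays, since the steroid list held 3 positive and 6 negative without array 1 and 8 and 1 without array 2, and the respiratory chain list held 2 and 7 without array 1 and 4 and 4 without array 2.

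Some genes moved in the same direction in both genotypes, and most of these had no called difference. Both responses were called in the same direction for 180 probe sets, 43 up and 137 down, and 129 of them had no called difference. Nucb2, a calcium-binding protein, read 327 and 336 in MOER-PPT, 180.5 and 171 in MOER-oil, 693 and 629 in ERKO-PPT, and 198 and 139.7 in ERKO-oil arrays, and Fam25c read 1262 and 1061 in MOER-PPT, 617 and 589 in MOER-oil, 1814 and 1747 in ERKO-PPT, and 822 and 664 in ERKO-oil arrays, each rising in MOER and in ERKO livers. Nucb2 rose further in ERKO livers, with a called difference of -1.03 ± 0.19 (adjusted p = 0.00669), and the difference of Fam25c, -0.33, was not called. That of Fam25c was -0.48 without ERKO-oil array 1 and -0.18 without array 2. Of those falling in both, Ces1d, a carboxylesterase, read 2218 and 2226 in MOER-PPT, 5518 and 5412 in MOER-oil, 1909.6 and 1939.6 in ERKO-PPT, and 5809 and 5308 in ERKO-oil arrays, Acot3, a peroxisomal thioesterase, read 60.4 and 82.6 in MOER-PPT, 413 and 358 in MOER-oil, 44.4 and 42.5 in ERKO-PPT, and 468 and 354 in ERKO-oil arrays, and Eci3, an enoyl-CoA isomerase, read 187 and 219 in MOER-PPT, 784 and 554 in MOER-oil, 92.8 and 52.8 in ERKO-PPT, and 449 and 277 in ERKO-oil arrays. The differences of Ces1d, Acot3 and Eci3 were 0.23 ± 0.12, 0.63 ± 0.21 and 0.47 ± 0.35, none of them called (adjusted p = 0.261, 0.089 and 0.449). That of Ces1d was called with quantile normalisation, and that of Acot3 with arrays centred on their liver-bright median. In wild type livers Ces1d and Acot3 fell, by -2.44 and -3.78, and Eci3 rose by 2.49.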

How the data were processed

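Transcripts were measured as hybridisation intensity on 12 arrays in 6 groups of 2. The deposited table holds 1 linear intensity per probe set and array; the authors' summarisation and normalisation are not stated in the labels, and the intensities were used as deposited. Array medians ran from 77.5 to 85.26 over all probe sets, and from 339.75 (ERKO-oil array 2) to 390.68 (ERKO-oil array 1) over the liver-bright ones, so centring on the liver-bright median was added as an alternative. Per the labels, the authors used Cyber-T at 99.99% with at least 2-fold change. Here, log2(intensity + 16) was fitted with limma 3.58.1 in R 4.3.3 (lmFit, eBayes) as 6 group means over all 12 arrays, with 6 residual and 10.47 moderated degrees of freedom. Tested were 19119 probe sets that exceeded the 40th percentile of an array in at least 2 of 12 arrays, two-sided, with Benjamini-Hochberg adjustment over all of them. Errors after ± are standard errors of the fit, and intervals are 95% intervals. A group is called dim where both arrays lie under their 40th percentile, and a fold against it uses that percentile as a floor. The number of arrays limits the precision.

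Genes are probe sets with 1 symbol, by highest mean; 21780 probe sets had 1 symbol, 1605 several and 5430 none, and 21689 matched RefSeq. The genes named are the 10 highest and 10 lowest differences, the 5 leading genes of each opposite pattern and of each shared direction, the 4 members of smallest p in each list, and Esr1, with other list members named from their lists. The members and gene lists were chosen with earlier results of these data known. Residuals of equally numbered arrays correlated between -0.22 and 0.39, over 0.1 in 6 of 15 pairs, so numbers were not taken to pair arrays. Alternatives covered the pseudocount, filter, liver-bright limit, normalisation, variance prior, arrays in the fit, replicate block and leaving out each array. The scripts were tested on simulated data. Some list members are not reported here.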

Additional observations from a re-analysis of the deposited data

Results flagged for a closer look

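The response to PPT differed between MOER and ERKO livers by a test of the difference itself for 1728 liver-bright probe sets (limma, adjusted p under 0.05). Like all called differences, those below had the same sign for every choice of 1 array per group, which reuses the arrays behind the calls. The genes below were called in opposite directions in the 2 genotypes. Of these, 5 rose in MOER and fell in ERKO livers, by log2 differences of 3.90 for Cyp17a1, 3.19 for Marco, 3.15 for Noct, 3.10 for Cyp3a13 and 2.46 for Dbp. Another 5 fell in MOER and rose in ERKO livers, by -5.60 for Slco1a1, -3.79 for Gbp11, -2.95 for Clec2h, -2.71 for Serpina12 and -2.19 for Arntl. Wild type arrays enter the calls only through the shared estimate of the spread and the liver-bright limit. Wild type livers moved with MOER livers for Cyp17a1, Marco, Noct, Gbp11, Clec2h and Arntl. They moved with ERKO livers for Cyp3a13, Dbp, Slco1a1 and Serpina12. A group was dim for Marco (ERKO-PPT) and Serpina12 (MOER-PPT), so the sizes of these differences depend on the constant added before the log, from 2.34 to 3.65 for Marco and from -3.12 to -1.95 for Serpina12 over the alternatives. All 10 kept the call and sign of the difference in every one of the 21 alternatives, which reuse the same arrays. The calls of these genes in each genotype were not repeated under the alternatives, so the opposite directions were not rechecked.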

How the results depend on the processing

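Counts of called probe sets depended on the arrays and the threshold more than on the added constant. For the difference (1728), the count was 1090 without the filter on dim probe sets, 2906 after quantile normalisation, 737 with only the 8 MOER and ERKO arrays in the fit, 281 with at least 2-fold change, 2976 with arrays centred on their liver-bright median (chosen after seeing the data), 2575 with a variance prior that follows the mean, and 782 to 3499 when leaving out 1 array. The MOER response (678) gave 1192 with quantile normalisation, 107 with 2-fold change, 1131 with that centring, 108 with a Cyber-T-style test, and 328 to 1290 without 1 array. The ERKO response (2693) gave 148 with 2-fold change, 146 with the Cyber-T-style test and 898 to 3864 without 1 array. With only each genotype's own arrays there were 590 MOER and 353 ERKO calls, so the order of the genotypes turned. The wild type response (4613) gave 877 with 2-fold change, 878 with the Cyber-T-style test and 3233 to 5788 without 1 array. With the replicate number as a replicate block the difference had 1690 calls, and the block changed no call of a gene in the text. The causes were not tested.

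Of 149 genes 120 were called, 99 of them in all 21 alternatives, and 0 of the 120 changed sign. With only the MOER and ERKO arrays in the fit, calls lost included those of Cyp3a16, Mat1a, Mup3, Cyp51 and Acacb (adjusted p = 0.0504, 0.0556, 0.0569, 0.0611 and 0.0627). Among those not called, the sign turned when leaving out 1 array for Igfbp1 (-0.41 to 0.031), Ccnb2 (-0.17 to 0.56), Trib3 (-0.010 to 0.25), Alb (-0.46 to 0.016), B2m (-0.16 to 0.11), Fgb (-0.27 to 0.071), Fgg (-0.21 to 0.13), Psmb8 (-0.18 to 0.49), Psmb9 (-0.18 to 0.13) and Srebf1 (-0.24 to 0.054). It also turned with all-probe-set median centring for B2m (0.018), Fgg (0.0019) and Psmb9 (0.016), and with quantile normalisation for Alb (0.091), B2m (0.21), Fgb (0.19) and Fgg (0.24). Some genes not called gained a call with all arrays kept. Quantile normalisation gave calls for Ces1d, Socs3, Hsph1, Hnf4a and Hspa5. Centring on the liver-bright median gave them for Acot3, Socs3, Hsph1 and Hnf4a, and a pseudocount of 64 for Hsph1 and Hnf4a. Without ERKO-oil array 1 the differences of Fam25c, Igfbp1, Atf4 and Alb were -0.48, -0.41, -0.42 and -0.46.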

Other observations

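Outside the liver-bright set, 356 of 5853 tested genes had a called difference, 111 positive and 245 negative, and most of the lowest were markers of pancreas, muscle or squamous epithelium. Some liver genes that missed the liver-bright limit in wild type livers under oil lay there too. Hsd3b5, Elovl3 and Cyp4a12a, male-biased in mouse liver, all had called negative differences. Elovl3, a fatty acid elongase, read 25 and 21.2 in MOER-PPT, 109 and 94.1 in MOER-oil, 1689.8 and 1597 in ERKO-PPT, and 205 and 119.8 in ERKO-oil arrays, and Cyp4a12a, a fatty acid hydroxylase, read 753 and 792 in MOER-PPT, 1434 and 1313 in MOER-oil, 4589 and 4715 in ERKO-PPT, and 525 and 479.9 in ERKO-oil arrays. Sult1e1, the oestrogen sulfotransferase, rose in MOER livers, at 1089.7 and 1336 in MOER-PPT, 133 and 109.9 in MOER-oil, 52.1 and 55.1 in ERKO-PPT, and 68.8 and 66.4 in ERKO-oil arrays, a difference of 3.42 ± 0.17 (limma adjusted p = 5.03e-07), and its wild type level was 244 and 219 after PPT and 119 and 130.2 after oil.

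Annotation differed between the directions of the difference. Among 971 positive liver-bright probe sets 87.4% had 1 gene symbol, 4.12% several and 8.44% none, while among 757 negative ones 69.2% had 1, 14.4% several and 16.4% none. Over all 11195 the shares were 80.0%, 6.69% and 13.3%. A count of negative genes therefore leaves out a larger share of the called probe sets than a count of positive genes.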
